A study of Mus musculus with 6 samples.

Results

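The proteins of the cytosolic ribosome were examined as 82 genes among the 38561 genes counted in each library, 51 of the large subunit and 31 of the small subunit. Members were taken by symbol, as Rpl or Rps followed by a number with or without one of the suffixes a, x, l, al or l1, together with the stalk genes Rplp0, Rplp1 and Rplp2 and the gene Rpsa. Pseudogenes and the Rps6k kinases were left out, and 3 genes with a fitting symbol (Rpl6l, Rps12l1 and Rps4l) were set aside as annotated pseudogenes. Of the 82 members, 78 passed the expression filter of edgeR and entered the test, 47 of the large and all 31 of the small subunit. Rpl10l, Rpl39l, Rpl3l and Rpl23a did not pass it.

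Polyadenylated RNA from the small intestinal mucosa of C57BL/6J mice aged 8 to 12 weeks had been sequenced as 3 pools with genotype Rbm47_IKO and 3 pools with genotype wt, each pool made from 3 mice of both sexes. RBM47 is an RNA-binding protein of the intestinal epithelium and a cofactor of the C-to-U editing of Apob mRNA. In Rbm47_IKO mice the floxed gene is deleted by a Cre recombinase under the villin promoter, which acts in epithelial cells, so that muscle, immune and other stromal cells in the mucosa keep the gene. The labels name the controls wt, whereas the methods of the study name floxed mice. The sample descriptions give 3 mice per pool, whereas those methods give 3 to 4. Because each library mixes RNA of several mice, the spread between pools does not show the spread between mice, and p-values refer to pools. The libraries held 31560320 to 38951830 counts. The targeted gene went against the labels: Rbm47 had 603, 625 and 619.8 CPM (counts scaled to a common library size with the TMM factors of edgeR) in the 3 pools labelled Rbm47_IKO and 459.8, 449.9 and 472 in the 3 wt pools, and the log2 fold change was 0.42 (standard error 0.10, 95% interval 0.19 to 0.65, edgeR adjusted p = 0.0751). It was called in 2 of 21 alternatives, DESeq2 and scaling by library size only, and the adjusted p over all of them ran from 0.00105 to 0.356. The paper reports that Rbm47 mRNA and protein were negligible after the constitutive deletion in the intestine. The level counted in the pools labelled Rbm47_IKO differs from that report. The counts cover the whole gene, and which part of it is deleted is not given in the sources used here. This level therefore need not test the labels, and an exchange of labels was not tested. Markers of epithelial cell types are given beside it as values. All 7 enteroendocrine markers had a log2 fold change below 0 (median -0.60), and 4 had an unadjusted p under 0.05, against 16.8% of all genes tested. EdgeR called 1 of them, the hormone gene Ghrl, at -1.44 (edgeR adjusted p = 0.0393), against 2.70% of all genes, and DESeq2 called 3, against 1243 of all genes. The hormone genes Cck and Gip were at -1.24 and -0.76 (edgeR adjusted p = 0.101 and 0.0871). The call of Ghrl was lost in 8 of 21 alternatives, the replicate number and the Y-linked covariate in the fit and each of the 6 single-pool omissions, with adjusted p up to 0.212 and a log2 fold change of -1.62 to -1.28 with single pools left out. Of 6 goblet cell markers 6 were above 0 (median 0.28), and 4 without wt pool 3, of 5 tuft cell markers 1 was above 0 (median -0.13), and 5 without wt pool 3, and of 5 Paneth cell markers 0 were above 0 (median -0.77), beside 49.3% of all genes tested. Of these 16 goblet, tuft and Paneth markers edgeR called 0, 2 had an unadjusted p under 0.05 and DESeq2 called 2, to be set against the same shares of all genes. In Rbm47-IKO small intestine the paper reports fewer enteroendocrine cells, more goblet and tuft cells and comparable Paneth cells. By qPCR it reports lower Cck, Ghrl and Gip, higher goblet cell genes and Dclk1, and no change in the lysozyme genes. These reports were not tested against the pools here. Every direction below is that of the pools labelled Rbm47_IKO against the pools labelled wt. In bulk RNA of this kind, fewer cells of a type and less RNA per cell cannot be told apart.

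A ribosome joins a small subunit, which reads the mRNA, with a large subunit, which forms the peptide bond, and each subunit is a core of ribosomal RNA covered by ribosomal proteins that are mostly present in a single copy. The genes for these proteins are transcribed in nearly every cell and are controlled together, both by transcription and by translation of their mRNAs. Most of these mRNAs begin with a run of pyrimidines at the cap, the 5' terminal oligopyrimidine (TOP) tract, through which the kinase mTOR and the protein LARP1 adjust their translation and stability to growth conditions. In the intestine, crypt cells divide continuously and absorptive and secretory cells make large amounts of protein. Mammalian genomes also carry many processed pseudogenes of these genes, which are near copies of their mRNAs.

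The start regions of the members were read from the RefSeq promoter table (GRCm38.p6), in which 62 of the 82 members had 74 windows. Each window printed here spans 10 bases before to 20 bases after the annotated start, 5′ to 3′ on the strand of the gene, with the longest run of C and T in capitals. They are shown because the run is a feature that many members share and that the choice of members did not use, and because the members varied together across pools. The first lines hold members with a long run, and the lines from Rplp0 on hold members in which the run is short or lies away from the start.
Rpl27a (chr7:109519185-109519214, plus strand): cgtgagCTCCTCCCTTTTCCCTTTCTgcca
Rpl35 (chr2:39005112-39005141, minus strand): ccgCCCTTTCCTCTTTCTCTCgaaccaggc
Rpl15 (chr14:18270967-18270996, minus strand): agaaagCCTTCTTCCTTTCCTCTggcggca
Rpl7a (chr2:26910797-26910826, plus strand): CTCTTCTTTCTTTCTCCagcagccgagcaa
Rpl13a (chr7:45128726-45128755, minus strand): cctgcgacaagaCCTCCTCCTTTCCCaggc
Rps10 (chr17:27635225-27635254, minus strand): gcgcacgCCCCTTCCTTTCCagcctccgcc
Rplp2 (chr7:141447641-141447670, plus strand): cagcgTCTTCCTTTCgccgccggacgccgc
Rps6 (chr4:86857348-86857377, minus strand): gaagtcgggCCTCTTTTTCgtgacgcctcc
Rps9 (chr7:3704031-3704060, plus strand): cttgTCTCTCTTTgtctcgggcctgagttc
Rps27 (chr3:90213629-90213658, minus strand): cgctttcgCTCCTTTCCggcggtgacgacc
Rpl22l1 (chr3:28805498-28805527, plus strand): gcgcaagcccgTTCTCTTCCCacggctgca
Rplp0 (chr5:115559457-115559486, plus strand): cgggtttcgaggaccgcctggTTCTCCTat
Rpl4 (chr9:64173377-64173406, plus strand): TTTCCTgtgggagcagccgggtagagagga
Rps3 (chr7:99483690-99483719, minus strand): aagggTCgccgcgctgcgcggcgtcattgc
Rpl7l1 (chr17:46782637-46782666, minus strand): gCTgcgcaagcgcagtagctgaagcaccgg
Over the members' windows, 40 of 74 (54.05%) held a run of at least 6 pyrimidines, against 28.67% of all 32851 windows in the table. On the opposite strand the share was 10.81% for the members and 32.05% for all windows. The letters CCGGAA, searched on both strands of the 300 bases from 250 before to 50 after the start, were found in 35 of 74 windows of the members (47.3%) and in 14.9% of all windows. These counts describe the letters in the windows only, and annotated starts can lie several bases from the base at which an mRNA begins.

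Counts assigned to ribosomal protein genes were a small part of these libraries. The counting of reads with several matching positions is not known here, so this share need not be that of the mRNAs. The 82 members held 0.231%, 0.2602% and 0.2327% of the counts in the pools labelled Rbm47_IKO and 0.235%, 0.2496% and 0.1496% in the wt pools. Per kilobase of gene length, as given in the tables, the level spread widely among proteins that the ribosome mostly holds in equal numbers. In the large subunit it ran from 0.518 CPM per kilobase for Rpl19 to 198 for Rpl8, with a median of 5.52 over the 47 tested members. In the small subunit it was 0.458 for Rps29 at the low end and 83.4 for Rps14 among the high members, with a median of 8.33 over 31. Behind Rpl8, the levels per kilobase were 176 for Rpl4, 155 for Rplp1 and 114 for Rplp0. The 5 members with the highest CPM held 42.0% of the summed CPM of all members, and the 10 highest held 62.3%. At the other end stood Rpl19, Rpl36a (0.653) and Rpl11 (0.701) in the large subunit and Rps29, Rps23 (0.537) and Rps28 (0.624) in the small subunit.

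The members differed in how much of their mRNA sequence occurs in 1 gene only. Each member's main coding transcript was cut into overlapping windows of 100 bases, and a window was counted as unique when no other annotated gene or pseudogene held an exact copy on either strand. The unique share was 100% for Rps3, Rpl22, Rpl32 and Rps21 and 98.3% for Rpl8, but 1.63% for Rps27, 8.43% for Rpl10, 16.4% for Rpl36a and 16.4% for Rps6. Among the 21 tested members with a unique share of at least 80%, the median level was 28.6 CPM per kilobase. It was 4.54 among the 32 members with 50% to under 80%, and 2.33 among the 25 with under 50%. Across the 78 tested members Spearman's rho between level per kilobase and unique share was 0.61 with windows of 100 bases and 0.47 with windows of 50 bases, a description across genes of the same libraries. Exceptions existed in both directions, since Rps2 reached 28.8 CPM per kilobase with 41.5% unique windows, whereas Rps15a had 1.74 with 97.0% and Rpl21 had 0.865 with 83.3%. How reads with several matching positions were counted is not given in the sources used here, so the part of this in the levels was not tested, and a level of a single member need not be the level of its mRNA. The comparison between groups sets the same gene against itself and was made on whatever reads were counted.

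**Figure D1:**
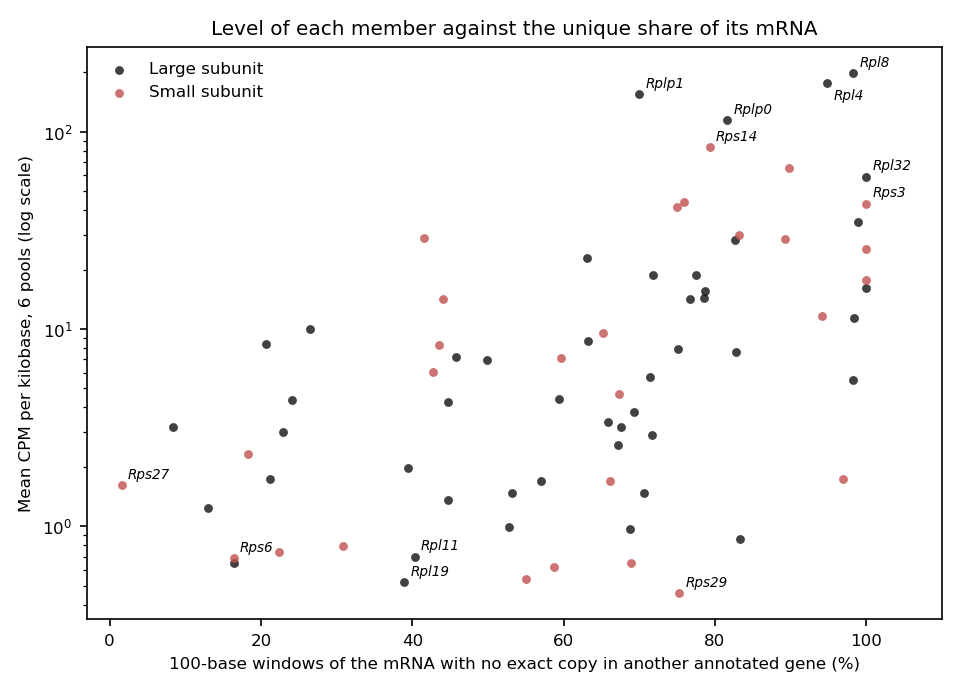
Mean level of each plotted member over the 6 pools (CPM per kilobase of gene length, log axis) against the share of 100-base windows of its mRNA with no exact copy in another annotated gene, for 47 large subunit and 28 small subunit members. Rpl8 and Rpl4 lie at the upper right, and Rps27, with 1.63% unique windows, at the far left.

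Across pools the members of both subunits kept close together, and 1 control pool stood below the other 5. The summed CPM of the large subunit was 1358, 1495 and 1269 in the pools labelled Rbm47_IKO and 1325, 1377 and 905 in the wt pools. For the small subunit it was 989, 1181 and 979.8 against 955, 1069 and 658. The lowest value of each subunit was that of wt pool 3, and the other 2 wt pools lay within the range of the pools labelled Rbm47_IKO for the large subunit, with wt pool 1 just below that range for the small subunit. Wt pool 3 was the lowest of the 6 pools for 38 of 47 large subunit members (80.9%) and 23 of 31 small subunit members (74.2%), whereas it was the lowest for 2955 of all 16425 genes tested, and it was the highest for 0 of the 78 members. Its level was below the mean of wt pools 1 and 2 by a median log2 ratio of -0.55 in the large and -0.61 in the small subunit, with -0.05 over all genes tested and -0.09 over 6840 other genes of similar length. This was most regular where counts were high. Wt pool 3 was lowest for all 12 members with a mean of at least 50 CPM, for 30 of the 31 members from 10 to under 50 CPM, and for 19 of the 35 members under 10 CPM, whose counts were between 6 and 424. Members with a run of at least 6 pyrimidines anywhere in the window of 30 bases had wt pool 3 lowest in 27 of 37 cases (73.0%), members whose longest run was shorter in 19 of 22 (86.4%), and members without a window in 15 of 19 (78.9%).

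**Figure D2:**
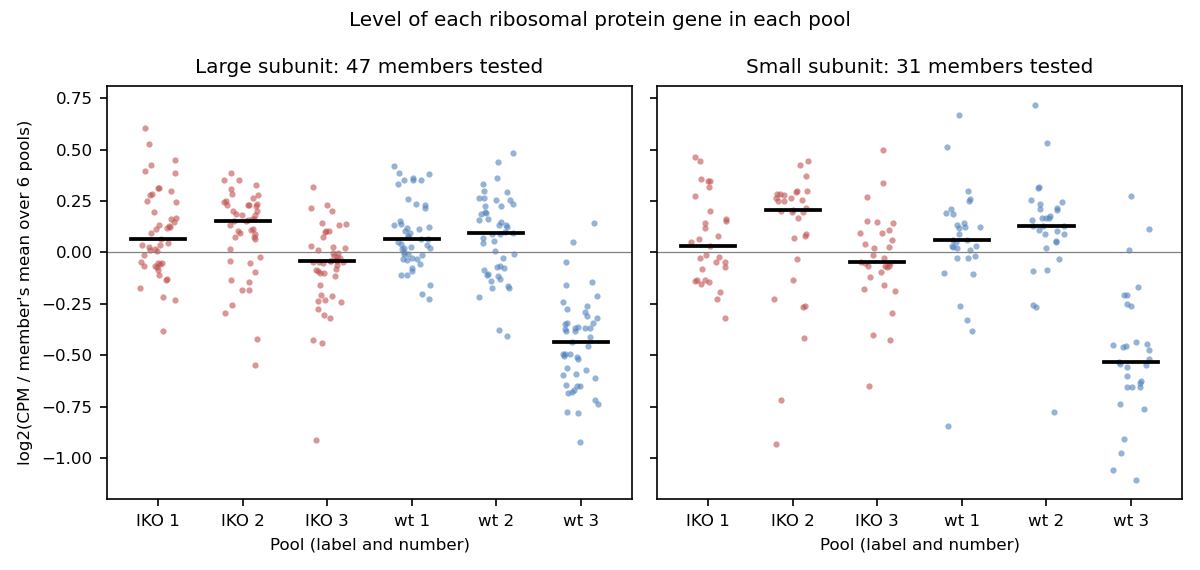
Each point is 1 tested member in 1 pool, as log2 of its CPM over its own mean across the 6 pools, for the large (47 members) and small (31 members) subunit, with red points for pools labelled Rbm47_IKO, blue points for wt pools and black bars for medians. The medians of wt pool 3 are -0.43 and -0.53, and those of the other 5 pools lie between -0.05 and 0.21.

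The comparison by genotype asked whether ribosomal protein mRNAs differed between the pools labelled Rbm47_IKO and wt. With edgeR's quasi-likelihood test and Benjamini-Hochberg adjustment over all 16425 genes, 0 of the 47 large subunit members and 0 of the 31 small subunit members passed an adjusted p of 0.05, against 2.70% of all genes tested (443 genes). At an unadjusted p under 0.05 the count was also 0 of 78, against 16.8% of all genes. DESeq2 and limma-voom also called 0 members. The median log2 fold change was 0.15 in the large subunit, where 36 of 47 were above 0, and 0.17 in the small subunit, where 25 of 31 were above 0, beside -0.01 over all genes. These medians depended on wt pool 3. Without it they were 0.00 and 0.02, with 24 of 47 and 16 of 31 members above 0. With the mean log2 CPM of Y-linked genes as a covariate they were 0.04 and 0.09. The 3 pools labelled Rbm47_IKO were all above the 3 wt pools for 4 of the 78 tested members, against 11.7% of all genes, and all below them for 2 members, against 11.6%. Those members were Rpl13, Rpl22l1, Rpl36al and Rpl7l1, and Rpl15 and Rpl19, all of the large subunit. The number of such members is below the background in both directions.

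The intervals bound what these pools could show. Of the 78 tested members, 63 had a 95% interval of the log2 fold change within -1 and 1, that is, within a 2-fold difference each way (40 of 47 in the large and 23 of 31 in the small subunit). For 13 members the interval lay within a 1.5-fold difference. Standard errors ran from 0.12 for Rpl7l1 to 0.50 for Rps13. The interval reached beyond a 2-fold higher level for 10 members and beyond a 2-fold lower level for 6, among them the thinly counted Rps28, Rps29, Rps23, Rps13, Rpl19 and Rpl38.

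**Figure D3:**
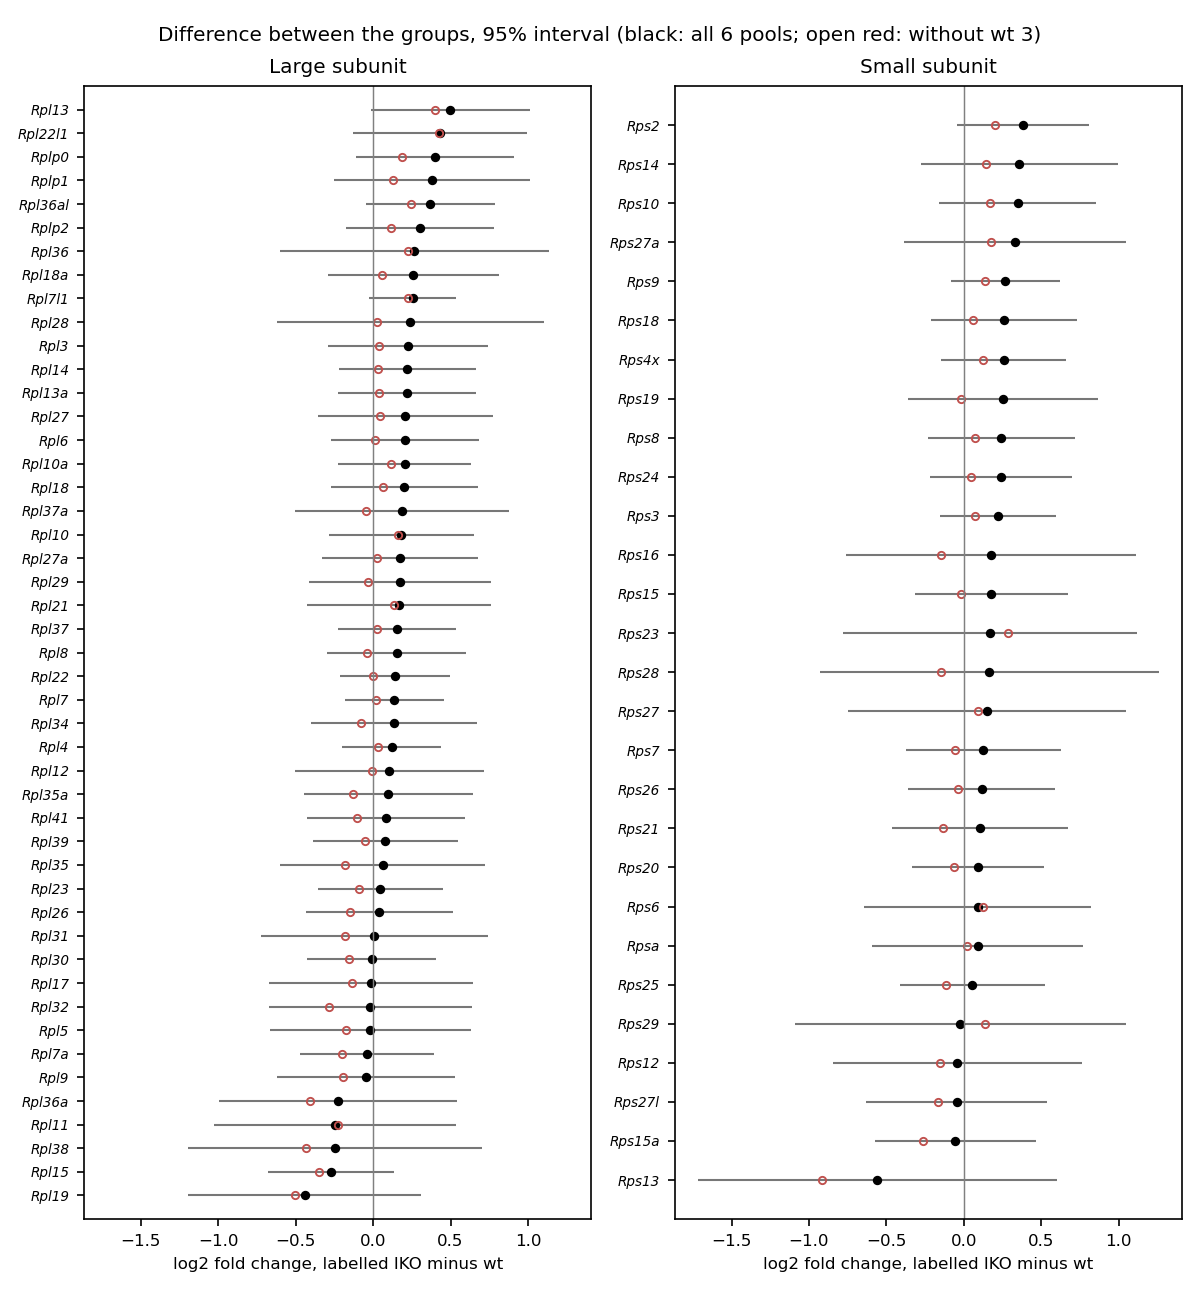
Log2 fold change of 47 large and 28 small subunit members, pools labelled Rbm47_IKO minus wt, with the 95% interval of edgeR's quasi-likelihood fit (black points and grey lines, 3 against 3 pools) and the value without wt pool 3 (open red circles). All intervals include 0, and most open circles lie to the left of the black points.

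The stalk of the large subunit, which recruits the translation factors that hydrolyse GTP, is built from Rplp0 as a base and from dimers of Rplp1 and Rplp2. Rplp0 (ENSMUSG00000067274, chromosome 5, 115559467 to 115563727) had 212, 248 and 188 CPM in the pools labelled Rbm47_IKO and 189, 191 and 111 CPM in the wt pools. The groups overlapped, since Rbm47_IKO pool 3 lay below wt pools 1 and 2, and wt pool 3 was the lowest. The log2 fold change was 0.40 (standard error 0.22, 95% interval -0.11 to 0.91, edgeR adjusted p = 0.427), and 0.19 without wt pool 3. Rplp1 had 72.5, 98.2 and 90.4 CPM against 69.0, 90.7 and 40.6, with pool 2 of each label the highest and wt pool 3 the lowest, and Rplp2 had 15.2, 18.7 and 18.3 against 15.4, 16.8 and 10.1. Their log2 fold changes were 0.38 (95% interval -0.25 to 1.01) and 0.30 (-0.17 to 0.78), and without wt pool 3 they were 0.13 and 0.12. Neither passed the test (edgeR adjusted p = 0.559 and 0.535). All 3 stalk genes were thus among the members with the larger positive values, and none could be told from no difference.

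The most highly counted large subunit member was Rpl4, a protein that lines the exit tunnel of the nascent peptide, and the highest level per kilobase was that of Rpl8, which lies near the catalytic centre. Rpl4 (ENSMUSG00000032399, chromosome 9, 64173387 to 64178562) had 277, 271 and 234 CPM in the pools labelled Rbm47_IKO and 275, 238 and 207 in the wt pools. Its groups overlapped, with Rbm47_IKO pool 1 and wt pool 1 almost equal. Its log2 fold change was 0.12 (standard error 0.14, 95% interval -0.20 to 0.44, edgeR adjusted p = 0.759), 1 of the narrowest intervals. Without wt pool 3 that value was 0.029. Rpl8 (ENSMUSG00000003970, chromosome 15, 76904071 to 76906318) had 179, 195 and 166 CPM against 175, 196 and 115 CPM, and only wt pool 3 stood apart. The log2 fold change was 0.15 (95% interval -0.30 to 0.60) with all pools and -0.04 without wt pool 3.

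Among the members with the largest differences, Rpl13 (ENSMUSG00000000740, chromosome 8, 123102350 to 123105244) had 5.46, 4.89 and 3.92 CPM in the pools labelled Rbm47_IKO and 3.53, 3.69 and 2.88 in wt, from 189, 185 and 128 and 120, 140 and 105 counts. The groups did not overlap, and the log2 fold change of 0.50 (standard error 0.22, 95% interval -0.02 to 1.01, edgeR adjusted p = 0.313) was the highest of the large subunit and had the smallest adjusted p of all members. Leaving out each pool in turn gave 0.39 to 0.62. At the negative end of the large subunit, Rpl19 (ENSMUSG00000017404, chromosome 11, 98026710 to 98030492) had 17, 15 and 15 counts against 23, 23 and 20, so that its separation of 0.491, 0.396 and 0.459 CPM from 0.676, 0.606 and 0.549 CPM rested on 15 to 23 reads per library. Its log2 fold change was -0.44 (standard error 0.32, 95% interval -1.19 to 0.31, edgeR adjusted p = 0.575). Rpl15 had 6.67, 6.36 and 5.94 CPM against 8.91, 7.25 and 6.75, also without overlap, with a log2 fold change of -0.27 (95% interval -0.68 to 0.14, edgeR adjusted p = 0.513). Rpl38, a protein studied for its part in the translation of homeobox mRNAs, had 33, 41 and 16 counts against 34, 49 and 26 and a log2 fold change of -0.25 (-1.19 to 0.70).

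Of the small subunit, Rps3, a protein at the mRNA entry channel that also has a DNA repair activity, was the most highly counted. Rps3 (ENSMUSG00000030744, chromosome 7, 99477896 to 99483738) had 215, 222 and 187 CPM in the pools labelled Rbm47_IKO and 196, 200.3 and 139 in the wt pools, so that wt pools 1 and 2 lay inside the range of the other group and wt pool 3 below it. The log2 fold change was 0.22 (standard error 0.16, 95% interval -0.15 to 0.60, edgeR adjusted p = 0.566) and 0.08 without wt pool 3. Rps14, a protein of the platform of the small subunit, had 104, 157 and 128 against 91.8, 143 and 68.0 CPM, a log2 fold change of 0.36 (95% interval -0.28 to 0.998), and the pools of each label spread over much of the same range. Leaving out each pool in turn gave 0.145, without wt pool 3, to 0.701.

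Rps2, at the entry channel next to Rps3, had the highest log2 fold change of the small subunit. Its values were 60.5, 64.6 and 53.5 CPM in the pools labelled Rbm47_IKO and 48.9, 54.7 and 33.4 CPM in the wt pools, and the log2 fold change was 0.38 (standard error 0.18, 95% interval -0.05 to 0.81, edgeR adjusted p = 0.358). Rbm47_IKO pool 3 and wt pool 2 overlapped, and without wt pool 3 the value was 0.21. Rps10 had 12.5, 16.5 and 17.5 against 12.9, 14.7 and 8.89 CPM and a log2 fold change of 0.35 (-0.16 to 0.86), or 0.172 without wt pool 3. Rps13, among the most negative members, was thinly counted. It had 12, 16 and 9 counts against 21, 27 and 8 and a log2 fold change of -0.56 (standard error 0.50, 95% interval -1.72 to 0.60, edgeR adjusted p = 0.665), while wt pool 3, with 8 counts, was its lowest pool. Without that pool the value was -0.918. Rps15a had a value of -0.05 (-0.57 to 0.47).

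**Figure D4:**
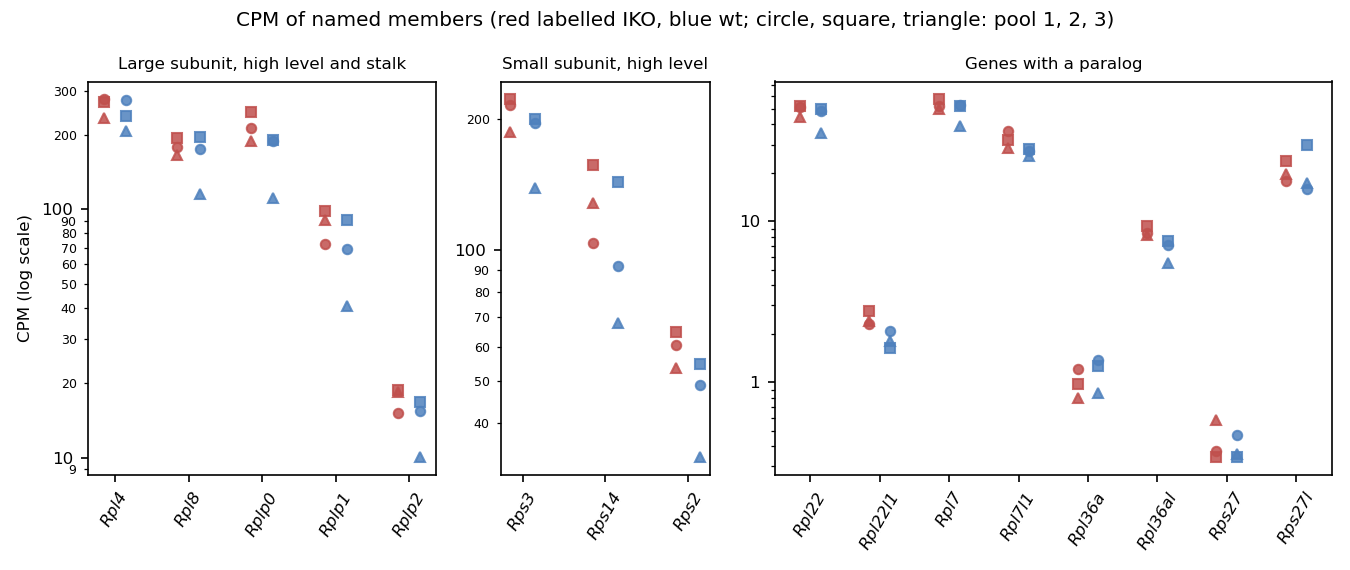
CPM (log axis) of named members in the 3 pools labelled Rbm47_IKO (red) and the 3 wt pools (blue), with circles, squares and triangles for pools 1, 2 and 3. Wt pool 3 (blue triangle) is the lowest point for each of the 8 genes of the left and middle panels, and the scales of the panels differ.

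Several members have a paralog with a similar symbol, and some of these paralogs can take their place in some tissues. The pairs were taken by symbol, and whether Rpl7l1 can replace Rpl7 was not examined. Rpl22l1, which replaces Rpl22 in part and whose mRNA is lowered by RPL22 in other tissues, had 2.31, 2.77 and 2.39 CPM in the pools labelled Rbm47_IKO and 2.09, 1.63 and 1.81 in wt. The groups did not overlap, the counts were between 62 and 105, and the log2 fold change was 0.43 (standard error 0.24, 95% interval -0.13 to 0.996, edgeR adjusted p = 0.434). Rpl22 itself, the abundant partner, had 51.5, 52.3 and 44.4 CPM against 48.8, 50.2 and 35.4 and a log2 fold change of 0.14 (-0.22 to 0.50), or 0.002 without wt pool 3. Rpl7l1 had 36.5, 31.9 and 28.5 CPM against 27.5, 28.0 and 25.6, again without overlap, with a log2 fold change of 0.26 (standard error 0.12, 95% interval -0.02 to 0.54, edgeR adjusted p = 0.343), while Rpl7 had 51.7, 57.3 and 49.7 against 52.8, 52.1 and 39.3 and a value of 0.14 (-0.18 to 0.46). Without wt pool 3, Rpl7l1 was at 0.224 and Rpl7 at 0.017. Rpl36al, an intronless copy of Rpl36a, had 8.46, 9.37 and 8.27 CPM against 7.15, 7.59 and 5.49 without overlap, a log2 fold change of 0.37 (standard error 0.18, 95% interval -0.05 to 0.79, edgeR adjusted p = 0.362). The exons of Rpl36al are shared over 24.54% of their length with the annotated gene Gm49383. Rpl36a had 1.21, 0.977 and 0.796 CPM against 1.38, 1.27 and 0.851 and a value of -0.23 (-0.996 to 0.54). Without wt pool 3, Rpl36al was at 0.245 and Rpl36a at -0.405. In these 3 pairs the copy with an l in its suffix had the higher log2 fold change, whereas Rps27l had a lower value than Rps27. No member of a pair passed the test, and the difference within pairs was not tested.

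Rps27l, a p53 target related to Rps27, had 17.7, 23.8 and 19.7 CPM in the pools labelled Rbm47_IKO and 15.9, 29.9 and 17.3 in wt, with wt pool 2 the highest and wt pool 1 the lowest, and a log2 fold change of -0.05 (-0.63 to 0.54). Rps27 was counted with 13 to 19 reads per library, and had a log2 fold change of 0.15 (-0.75 to 1.05). Only 1.63% of its windows are unique, so the higher level of Rps27l cannot be read as the ratio of the 2 mRNAs. Rps4x, the X-linked copy of a protein that males of some mammals also make from the Y chromosome, had 15.1, 19.0 and 16.8 CPM against 16.6, 14.7 and 11.3 and a log2 fold change of 0.26 (-0.15 to 0.66). Without wt pool 3 the value of Rps4x was 0.122. The tissue-restricted copies were at or near 0. Rpl10l, a retrogene active in male germ cells, had 0 counts in every pool, where 0 allows up to 3 counts per library. Rpl39l, also known from testis, had 1 count in 1 pool and Rpl3l, of skeletal and cardiac muscle, had 0, 2 and 0 against 1, 2 and 0 counts. Their partners Rpl10, Rpl39 and Rpl3 were measured at 8.15, 7.34 and 5.42 against 6.68, 5.82 and 5.93 CPM, 7.65, 9.11 and 7.66 against 7.44, 9.51 and 6.15 CPM and 13.8, 12.0 and 11.0 against 13.4, 10.6 and 7.55 CPM, with log2 fold changes of 0.18, 0.08 and 0.23 that did not pass the test (edgeR adjusted p = 0.747, 0.911 and 0.712). Without wt pool 3 these log2 fold changes were 0.162, -0.054 and 0.039.

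Members with a role beyond the ribosome did not pass the test either, and wt pool 3 was the lowest pool for Rpl5, Rps19 and Rps27a but not for Rpl11, Rps6 and Rpsa. Rpl5 and Rpl11 form with 5S ribosomal RNA the particle that holds MDM2 and so raises p53 when ribosome assembly fails. Rpl5 had 4.80, 3.62 and 3.09 CPM in the pools labelled Rbm47_IKO and 5.03, 3.66 and 2.96 in wt, a log2 fold change of -0.02 (-0.67 to 0.63), and 24.31% of its exonic bases are also covered by Fam69a on the other strand. Rpl11 had 2.48, 1.29 and 1.41 against 2.38, 1.69 and 2.09 CPM and a value of -0.25 (-1.03 to 0.54). Rps6, the substrate of the S6 kinases downstream of mTOR, was counted with 48, 44 and 27 reads against 31, 44 and 40, a log2 fold change of 0.09 (-0.64 to 0.83). Rps19, the gene most often mutated in Diamond-Blackfan anaemia, had 23.0, 25.4 and 22.7 CPM against 22.7, 25.4 and 11.6, with wt pool 3 far below every other pool. Its log2 fold change was 0.25 (standard error 0.26, 95% interval -0.36 to 0.87, edgeR adjusted p = 0.732), and -0.02 without wt pool 3. Rps27a, which is made as a fusion with ubiquitin, had 1.65, 2.11 and 1.501 against 1.79, 1.32 and 1.07 CPM and a value of 0.33 (-0.39 to 1.05), or 0.179 without wt pool 3. Rpsa, known also as a laminin receptor, had 1.502, 1.03 and 1.19 against 1.32, 1.13 and 1.04 CPM and a value of 0.09 (-0.59 to 0.77). Rpl11, Rps6, Rps27a and Rpsa had at most 86 reads per library, and their intervals each reach beyond a 1.5-fold difference in at least 1 direction.

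The ribosomal proteins whose symbols fall outside the pattern were described through Rack1, Rps3a1 and Fau. Rack1, a scaffold on the head of the small subunit, had 275, 313 and 255 CPM in the pools labelled Rbm47_IKO and 272, 266 and 167 in wt, with wt pool 3 far below the other 5 pools and a log2 fold change of 0.26 (standard error 0.20, 95% interval -0.20 to 0.72, edgeR adjusted p = 0.593). Rps3a1 had 22.9, 21.1 and 18.6 against 20.1, 17.6 and 13.0 CPM, again lowest in wt pool 3. Fau, made as a fusion with a ubiquitin-like protein, did not show that low value, with 5.43, 5.41 and 5.21 against 5.0, 6.98 and 5.49 CPM. None of these 3 passed the test, and their log2 fold changes ran from -0.12 to 0.31. Without wt pool 3, Rack1 was at 0.068, Rps3a1 at 0.151 and Fau at -0.159.

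Other genes of the pathway were taken from lists drawn up with earlier results of these data known. Of 19 other mRNAs with a TOP tract, 0 passed edgeR's test (2.70% of all genes tested), 2 had an unadjusted p under 0.05 (16.8% of all genes), 15 had a log2 fold change above 0 (49.3% of all genes) and the median was 0.19. Without wt pool 3 the median was 0.11, with 12 above 0. Eef1a1, the elongation factor that brings aminoacyl-tRNA, had 511, 551 and 474 CPM in the pools labelled Rbm47_IKO and 474, 469 and 367 in wt. Eef2, the translocase, had 1630.0, 1713 and 1448 against 1444, 1577 and 1552. Wt pool 3 was the lowest for Eef1a1 and not for Eef2. The poly(A)-binding protein Pabpc1 had 233, 209 and 189 CPM against 175, 138 and 142 without overlap, a log2 fold change of 0.47 (standard error 0.13, 95% interval 0.16 to 0.78, edgeR adjusted p = 0.120). The initiation factor subunit Eif3f had 101.2, 92.1 and 113 against 72.9, 84.3 and 62.7, also without overlap, and a log2 fold change of 0.48 (standard error 0.14, 95% interval 0.16 to 0.80, edgeR adjusted p = 0.126). Pabpc1 was called in 2 of 21 alternatives, DESeq2 and edgeR with the smooth muscle covariate, and Eif3f in 1 of 21, DESeq2. Over all alternatives the adjusted p of edgeR, DESeq2 or limma ran from 0.0242 to 0.395 for Pabpc1 and from 0.0273 to 0.323 for Eif3f. Ribosome biogenesis factors counted 36 genes, of which 0 passed edgeR's test, 2 had an unadjusted p under 0.05, 32 were above 0 and the median was 0.13. Without wt pool 3, 17 were above 0 and the median was -0.01. The pools labelled Rbm47_IKO were all above the wt pools for 3 of the 36, against 11.7% of all genes. Among those 3, Rrp9 and Rrp12, which work on the precursors of ribosomal RNA, had 10.5, 8.40 and 6.65 against 6.41, 5.90 and 4.39 CPM and 16.2, 12.9 and 12.4 against 12.1, 9.80 and 8.53 CPM (edgeR adjusted p = 0.239 and 0.272). Of 76 tested mitochondrial ribosomal proteins, which serve the separate ribosome of the organelle, 0 passed the test, 40 were above 0 and the median was 0.01.

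The pattern of wt pool 3 extended in part to these lists. The median log2 ratio of wt pool 3 to the mean of wt pools 1 and 2 was -0.48 for ribosome biogenesis, -0.35 for the other TOP mRNAs, -0.29 for the mitochondrial ribosome and -0.14 for translation factors, beside -0.58 over both subunits. It was the lowest pool for 25 of 36, 11 of 19, 37 of 76 and 25 of 64 tested genes of those lists. The lists were not tested against each other.

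**Figure D5:**
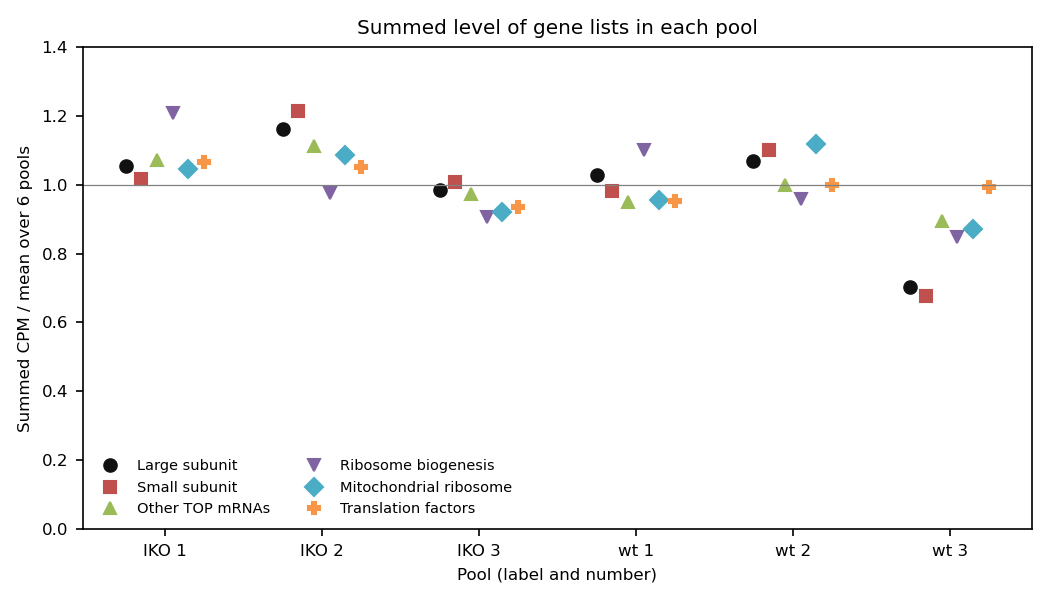
Summed CPM of each gene list in each of the 6 pools, divided by the mean of the list over the pools, with the axis starting at 0. Both ribosomal subunits, the other TOP mRNAs, the ribosome biogenesis factors and the mitochondrial ribosome are lowest in wt pool 3. The translation factors are lowest in Rbm47_IKO pool 3.

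Regulators of ribosomal protein mRNAs and translation factors held a few calls. With edgeR, 1 of 22 tested regulators was called higher and 0 lower, and of 64 tested initiation and elongation factors 1 was called higher and 2 lower, beside 2.70% of all genes tested. Eif4ebp2, Eif4ebp1 and Eif4e are in both lists. DESeq2 called 2 regulators and 6 factors, with Eif4ebp2 and Eif4ebp1 counted in both, and 1243 of all genes. Eif4ebp2, a repressor that binds the cap-binding protein until mTOR phosphorylates it, had 64.7, 70.2 and 70.1 CPM in the pools labelled Rbm47_IKO and 41.1, 36.8 and 35.3 in the wt pools. All of the former lay above all of the latter, and the log2 fold change was 0.86 (standard error 0.10, 95% interval 0.62 to 1.09, edgeR adjusted p = 0.0109). Eif4a2, an RNA helicase of the cap-binding complex, had 89.8, 83.9 and 89.3 against 154, 149 and 166 CPM, and fell, with a log2 fold change of -0.84 (standard error 0.10, 95% interval -1.06 to -0.61, edgeR adjusted p = 0.0100). Eif4e3, a cap-binding protein of the eIF4E family, had 4.68, 5.23 and 5.02 against 8.47, 9.12 and 10.3 CPM and a log2 fold change of -0.90 (standard error 0.16, 95% interval -1.28 to -0.52, edgeR adjusted p = 0.0365). For Eif4ebp2 and Eif4a2 the call was lost in 5 of 21 alternatives, with the replicate number or the Y-linked covariate in the fit and without Rbm47_IKO pool 1, Rbm47_IKO pool 2 or wt pool 3, with adjusted p up to 0.0953 and 0.0978. For Eif4e3 it was lost in 9 of 21, each of the 6 single-pool omissions among them, with adjusted p up to 0.196. The log2 fold changes with single pools left out ran from 0.81 to 0.92 for Eif4ebp2, from -0.87 to -0.79 for Eif4a2 and from -0.97 to -0.82 for Eif4e3. Eif4ebp1 had 6.59, 9.06 and 8.45 against 14.3, 18 and 11.9 CPM, a log2 fold change of -0.88 (standard error 0.20, 95% interval -1.35 to -0.40, edgeR adjusted p = 0.0712). It was called in 2 of 21 alternatives, DESeq2 and the smooth muscle covariate, and the adjusted p over all alternatives ran from 0.00304 to 0.244. Larp1, the protein that holds TOP mRNAs, had 154, 132 and 126 against 125, 103 and 98.5 CPM, with the log2 fold change at 0.34 (edgeR adjusted p = 0.255).

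Markers of the cell types in the mucosa were summed per pool beside these results. Enterocyte markers (8 genes) held 36083 to 42529 CPM, so every pool held epithelium. Crypt stem cell markers (5 genes) were at 106, 96.4 and 123 CPM against 112, 178 and 68.9 and proliferation markers (8 genes) at 253, 188 and 152 CPM against 292, 205 and 174. Wt pool 3 had the lowest stem cell sum, while the lowest proliferation sum was that of Rbm47_IKO pool 3. Paneth cell markers (5 genes) were at 573, 662 and 371 CPM against 1540.0, 1056 and 405. Smooth muscle markers (6 genes) were at 361, 586 and 3302 CPM against 90.7, 2803 and 313, highest in Rbm47_IKO pool 3 and wt pool 2. Exocrine pancreas markers (6 genes) summed to 17.2 CPM in Rbm47_IKO pool 3 and to between 0.144 and 0.396 in the other 5. Y-linked genes (4 genes), which follow the share of males in a pool, were at 139, 53.0 and 144 CPM against 215, 87.9 and 220.3. Fits with the mean log2 CPM of the muscle or of the Y-linked genes as a covariate called 0 members. Apart from these fits, the part of the markers in the level of the ribosomal proteins was not tested.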

How the data were processed

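RNA of the small intestinal mucosa had been pooled, selected with oligo(dT) and sequenced as 3 pools labelled Rbm47_IKO and 3 labelled wt. Per the submitters' processing notes, STAR 2.5.1a, Subread and featureCounts 1.4.6-p5 were used with the GRCm38 build. The use of strand and the treatment of reads with several matching positions are not given in the sources used here. For each pool the authors deposited a table of whole-number read counts for 38561 Ensembl genes, not normalized. The same tables hold the authors' CPM, the count scaled to the total of the pool, and the authors' RPKM, which divides that value by the gene's length. The deposited CPM and RPKM columns were not used further. All CPM values in the text were computed from the counts with the TMM library sizes.

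Symbols were matched to 36639 of the 38561 genes through GENCODE release M21 (GRCm38). Rpl24 was not analysed here, and some genes that the rule below names are not reported here, singly or in the plots by gene, although sums and counts include them. Genes past the filterByExpr function (16425) were tested with edgeR 4.0.16 (TMM, quasi-likelihood F test, R 4.3.3) as Rbm47_IKO against wt, with Benjamini-Hochberg adjustment over all of them and a threshold of 0.05. Intervals of 95% were computed from the standard error and the degrees of freedom of that fit. DESeq2 1.42.0, limma 3.58.1 (voom), RLE, upper quartile and library size scaling, TMM factors without the members, other filters, a robust fit, a fit with the replicate number as a block, covariates for muscle and Y-linked genes, offsets for gene length and GC content, removal of immunoglobulin genes and the omission of each pool were the alternatives. Transcript windows were compared as exact words of 50 and 100 bases over the transcripts of GENCODE M21 in Python 3.11.15. Promoter windows came from RefSeq (GRCm38.p6). For a single value the smallest p of an exact permutation over 3 and 3 pools is 0.1, so none was used. Depth was 31560320 to 38951830 counts per pool. Reads are not independent molecules, and a limit of 3 counts for a count of 0 covers counting error only.

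The members, the lists and the alternatives were chosen with earlier results of these data known. Named members were those called, the 3 highest and 3 lowest log2 fold changes and levels per kilobase of each subunit, the paralog pairs, and the stalk genes with Rpl5, Rpl11, Rps6, Rps27a, Rpsa, Rps19, Rpl10 and Rps3. Members and list genes named besides these were chosen after their values were seen.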

Additional observations from a re-analysis of the deposited data

How the results depend on the processing

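In all 21 alternatives 0 members of either subunit were called, and the lowest adjusted p of any member in any of them (edgeR, DESeq2 or limma) was 0.125, without wt pool 2. The median log2 fold changes ran from 0.04 to 0.17 in the large and from 0.09 to 0.21 in the small subunit over the alternatives with all pools. When a pool was left out they ran from 0.00 to 0.25 and from 0.02 to 0.30, with the lowest without wt pool 3. The log2 ratio of summed CPM was 0.19 (large) and 0.23 (small), and 0.03 and 0.05 without wt pool 3. It changed little as a share of raw counts or with the ribosomal protein genes outside the name pattern added.

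The number of all genes called, 443, moved more: 1243 with DESeq2, 716 with the muscle covariate, 263 with the GC offset, 58 with the Y-linked covariate and 100 with the replicate block. Leaving out single pools gave 0 to 431, with 32, 0 and 119 without Rbm47_IKO pools 1, 2 and 3 and 11 without wt pool 3. Without Rbm47_IKO pool 2, 1729 genes had an unadjusted p under 0.05. The replicate numbers did not pair the pools: deviations of same-numbered pools correlated at 0.408, -0.00258 and -0.277, and not every pool correlated best with its own number. With the replicate block 0 members were called.

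Of 36 named members tested, 23 kept the sign of the log2 fold change in every alternative, and no sign change passed the test (adjusted p of edgeR, DESeq2 or limma 0.317 or above where the sign changed). With the Y-linked covariate Rpl39 was at -0.087 and Rpl5 at 0.034. Rpl5 was at 0.084 with the muscle covariate, 0.113 with the GC offset and 0.001 with limma-voom. With the GC offset Rps15a was at 0.020, Rps27l at 0.057 and Rps6 at -0.047. With the replicate block Rps27l was at 0.001 and Rps29 at 0.006, and with limma-voom Rps29 was at 0.023. When single pools were left out, Rpl38 ran from -0.469 to 0.025, Rpl39 from -0.054 to 0.264, Rpl5 from -0.212 to 0.211, Rpl8 from -0.039 to 0.313, Rps15a from -0.260 to 0.080, Rps19 from -0.017 to 0.467, Rps23 from -0.081 to 0.340, Rps27 from -0.113 to 0.302, Rps27l from -0.210 to 0.298, Rps28 from -0.146 to 0.445, Rps29 from -0.303 to 0.162, Rps6 from -0.087 to 0.270 and Rpsa from -0.071 to 0.209. The cause was not tested. Low counts limit Rps13, Rps23, Rps27, Rps29 and Rpl19, which had 6 to 27 reads per library. DESeq2 gave no adjusted p for those 5 members.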

Other observations

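The genes set aside as pseudogenes differed in level. Rps4l, a transcribed processed pseudogene, had 862, 942 and 727 counts in the pools labelled Rbm47_IKO and 641, 943 and 742 in the wt pools. Its mean level per kilobase was 24.05 CPM, against 9.546 CPM for Rps4x. Only 65.18% of the 100-base words of the Rps4x transcript were found in no other gene. Rpl6l and Rps12l1 had at most 3 counts in any pool. The 233 genes of the table with a pseudogene symbol of a ribosomal protein, such as those ending in ps1, held 371 to 555 counts per pool together, between 0.444% and 0.716% of the counts of the members. Rpl23a, which did not pass the filter, had 4, 6 and 4 counts against 1, 3 and 0.

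Some members share exons with other annotated genes, and the use of strand is not known here. More than 20% of the exonic bases lay in exons of a gene on the other strand for 6 of the 82 members, and on the same strand for 3. Rpl35 shared 66.16% with Arpc5l and Wdr38, Rpl23a 59.74% with Tlcd1 and Rpl31 25.27% with Tbc1d8, all on the other strand. Rpl13a shared 35.38% and Rps10 20.55% on the same strand.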
